A study of Caenorhabditis elegans with 6 samples.

Results

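The *csb-1* mutant was compared with wild-type N2 larvae at L1, the first larval stage of *C. elegans*, by poly(A) RNA-seq of whole animals. Of the 6 libraries in the series, 4 entered the comparison: 2 of line RB1801, with the genotype *csb-1(ok2335)*, and 2 of N2. These 4 count files were fitted alone, and the 17730 of 46904 gene identifiers with at least 10 counts in at least 2 of the 4 libraries were tested. All animals were untreated and had been fed with bacteria, and both groups share that state. The 2 libraries of line TG2226, *xpc-1(tm3886)*, are quoted only as levels beside genes of interest. The labels give no hour within the L1 stage, no outcrossing of the mutant line and no separate cultures, so a p-value measures only the spread between these libraries, which may be technical. The RNA came from whole larvae, where fewer cells of a type and less RNA per cell cannot be told apart.

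CSB-1 is the worm counterpart of human CSB, a chromatin remodelling ATPase that recognises RNA polymerase stalled at a DNA lesion and starts transcription-coupled nucleotide excision repair. XPC-1 recognises lesions elsewhere in the genome and starts global repair, and both routes share the later factors that open and cut the DNA. In growing larvae much of the transcriptome is not constant, since cuticle collagens, apical matrix proteins and molting factors are transcribed in waves within each larval stage. Cytochrome P450 enzymes, glutathione transferases and glucuronosyl transferases form the detoxification system of the worm, expressed mainly in the intestine.

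The N2 libraries held 48299740 and 45719093 counts on genes, and the *csb-1* libraries held 43247541 and 48371365. Levels are given as CPM, counts scaled to a common total per library by the TMM factors of the 4 libraries, which were 1.11 and 1.08 for N2 and 1.12 and 0.746 for *csb-1*. A log2 ratio compares 1 *csb-1* library with the mean of both N2 libraries after adding 0.5 CPM, and the 2 ratios of a gene share the same N2 libraries. The replicates of the mutant were far apart. The log2 difference between replicates had an SD over genes of 0.32 in N2 and of 1.89 in *csb-1*, and at least 2-fold differences between replicates were found for 184 genes in N2 and 8351 genes in *csb-1*. Levels in *csb-1* are therefore given for both libraries. With each library scaled by its total alone, the median log2 fold change over all genes tested was -0.09 in place of 0.15, and *csb-1* replicate 2 carried that shift, with a median log2 ratio of -0.50 in place of -0.07.

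No gene was called between *csb-1* and N2 (0 of 17730, 0.0%) by edgeR's quasi-likelihood test at an adjusted p under 0.05. The lowest adjusted p was 0.997, and 507 genes had an unadjusted p under 0.05, of which 49 were higher and 458 lower in *csb-1*. In all 507, both *csb-1* libraries lay on the same side of both N2 libraries. DESeq2 called 69 genes (0.389%), 1 (0.00564%) higher and 68 (0.384%) lower in *csb-1*, and all 68 lay at least 2-fold below N2 in both mutant libraries. The edgeR count rested on the pair of *csb-1* libraries. With replicate 1 left out it was 9315, of which 4198 (24.3% of 17279 genes tested) were higher and 5117 (29.6%) lower in replicate 2. With replicate 2 left out it was 9734, of which 4797 (27.5% of 17421) were higher and 4937 (28.3%) lower in replicate 1. These counts compare the remaining *csb-1* library, and not the strain, with N2.

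For 8854 genes (49.9%) the *csb-1* libraries lay on opposite sides of both N2 libraries. Replicate 1 was above and replicate 2 below for 4516 of them (25.5%), and the reverse held for 4338 (24.5%). In 2427 genes (13.7%) both *csb-1* libraries lay above both N2 libraries and in 3421 genes (19.3%) both lay below, while for 3028 genes (17.1%) a *csb-1* library fell between the N2 values. A gap of at least 2-fold between the groups was found above N2 for 13 genes (0.0733%) and below N2 for 464 genes (2.62%). The side was less stable above than below. With libraries scaled by their totals 794 genes lay above and 4878 below, 14.0% of the one-sided genes being above in place of 41.5%. Under all 4 scalings, 655 genes stayed above and 3114 below, and 4 and 426 kept a gap of at least 2-fold. The 13 genes with a 2-fold gap above were 56 when N2 replicate 1 was left out and 26 when N2 replicate 2 was left out. The 464 below were 521 and 554. A gap is easier to reach with fewer libraries, so these rises do not measure stability. Just inside and just outside the 2-fold limit above N2 stood *pgl-1*, with a gap of 1.03 on the log2 scale, and *hsp-3*, with 0.99.

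**Figure D1:**
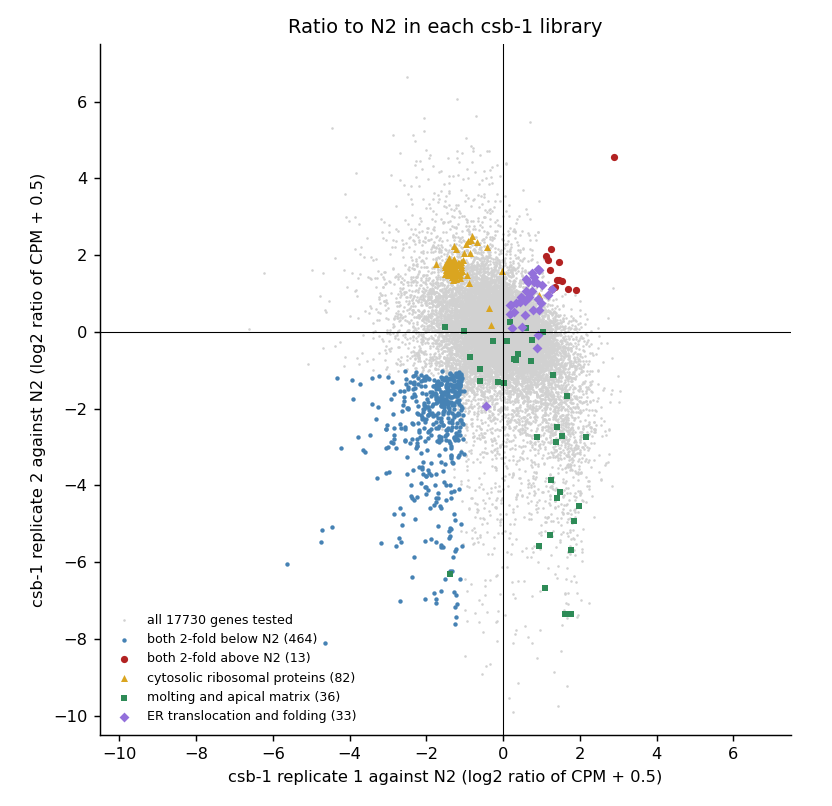
Log2 ratio to N2 in *csb-1* replicate 1 (horizontal axis) and *csb-1* replicate 2 (vertical axis), with 1 point per gene tested and both axes sharing the same N2 libraries. The 464 genes with both libraries at least 2-fold below N2 (blue) fill the lower left, 13 genes (red) the upper right, ribosomal protein genes the upper left and molting genes mostly the lower right. The endoplasmic reticulum genes (purple) are a list drawn up after values had been seen.

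The targeted gene was read first. *csb-1* (X chromosome, protein-coding) had 19.9 and 22.1 CPM in N2 and 16.9 and 7.76 CPM in *csb-1*, that is 818 and 280 counts in the mutant libraries. Both mutant libraries lay below both N2 libraries, replicate 1 only just. The log2 fold change was -0.76 (SE 0.54, adjusted p = 0.997 in edgeR's quasi-likelihood test). With *csb-1* replicate 1 left out it was -1.44 (adjusted p = 0.00012 in the same test), and with replicate 2 left out it was -0.30 (adjusted p = 0.175). Each of these compares a single mutant library with N2, so that the N2 pair alone gives the spread and the lone library is assumed to vary like N2. The counts are sums over all exons, and the labels do not say which part of the gene ok2335 removes, so the reads that remain neither check nor contradict the label. In *xpc-1* the gene had 28.5 and 28.7 CPM in a scaling of all 6 libraries.

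The tested genes within 10 genes of *csb-1* on the X chromosome showed no common direction. Among these 9 genes, *F53H4.6* lay above N2 in both libraries (5.54 and 5.21 CPM in N2, 10.7 and 8.04 in *csb-1*), as did *serp-1.1*, with 195 and 247 CPM in N2 and 318 and 256 in *csb-1*. *gmeb-2* had 29.7 and 34.8 CPM in N2 and 48.0 and 6.02 in *csb-1*, so its mutant libraries lay on opposite sides. *F53H4.3*, which shares only its last bases with *gmeb-2* on the other strand, had 17.6 and 22.2 CPM in N2 and 13.7 and 2.77 in *csb-1*, below in both. *acox-1.6*, *acl-1*, *F53H4.4* and *npr-33* had *csb-1* libraries on opposite sides of N2, and *F59F4.3* had replicate 2 between the N2 values. Within 2 Mb of *csb-1*, 10 of 520 genes tested lay at least 2-fold below N2 in both libraries, 1.92% against 2.62% over all genes.

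The widest gap above N2 belonged to *srw-85*, a predicted chemoreceptor gene of the serpentine class W. Its level was 3.84 and 2.27 CPM in N2 and 25.3 and 80.9 CPM in *csb-1*. Both mutant libraries stood well clear of both N2 libraries, and the log2 fold change was 4.12 (SE 0.81). It was also the only gene that DESeq2 called higher. The *xpc-1* libraries, at 38.2 and 41.3 CPM in the scaling of 6 libraries, were high too. A pseudogene on the other strand overlaps *srw-85*, with 0 and 1 counts in N2 and 11 and 11 in *csb-1*.

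Degradative enzymes of the lysosome and of dying cells stood next in rank. *nuc-1*, an acid DNase that digests DNA of engulfed cells and of bacteria in the gut, had 26.0 and 27.6 CPM in N2 and 60.8 and 98.8 in *csb-1*. *crn-6*, a related cell-death nuclease, had 10.3 and 8.44 CPM in N2 and 22.1 and 29.2 in *csb-1*. *lipl-2*, a lysosomal lipase, had 5.55 and 5.31 CPM in N2 and 12.5 and 22.8 in *csb-1*. In each of these genes the lower mutant library exceeded the higher N2 library by at least 2-fold, and their log2 fold changes were 1.57 (SE 0.38), 1.46 (SE 0.40) and 1.70 (SE 0.52). *cpr-6*, a cathepsin B-like protease, had 62.6 and 58.7 CPM in N2 and 119 and 186 in *csb-1*. The wider list of lysosomal hydrolases and nucleases, which was drawn up after these values had been seen, was not one-sided. Of its 59 tested members 10 (16.9%) lay above N2 in both libraries, 4 (6.78%) below and 41 (69.5%) on opposite sides. The shares of all genes tested were 13.7%, 19.3% and 49.9%. Its median log2 ratio was -0.79 in replicate 1 and 1.49 in replicate 2.

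Proteins of the endoplasmic reticulum supplied another part of this group. *pdi-2*, the protein disulfide isomerase that is also a subunit of the collagen prolyl hydroxylase, had 1155 and 1276 CPM in N2 and 2943 and 2628 in *csb-1*. *hsp-3*, a BiP chaperone of the lumen, had 1293 and 1279 CPM in N2 and 2565 and 2985 in *csb-1*. *ergi-1*, a protein of the traffic between reticulum and Golgi, had 6.43 and 6.47 CPM in N2 and 15.3 and 13.0 in *csb-1*. For these genes both mutant replicates gave nearly the same level.

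A list of 33 genes for translocation into the reticulum, glycosylation, signal cleavage and folding was therefore drawn up after these values had been seen. It includes *pdi-2*, *hsp-3* and *ergi-1*, which prompted it, so its counts are a description and no separate result. Of its 33 members, 30 (90.9%) lay above N2 in both *csb-1* libraries, against 13.7% of all genes tested, and the median log2 ratio was 0.67 in replicate 1 and 0.85 in replicate 2. With libraries scaled by their totals 24 of 33 lay above, beside 794 of all 17730 genes tested. *sec-61.A*, the pore subunit of the translocon, had 499 and 590 CPM in N2 and 947 and 1348 in *csb-1*, and *trap-3*, of the translocon-associated complex, had 175 and 172 CPM in N2 and 330 and 531 in *csb-1*. *crt-1*, the lectin chaperone calreticulin, had 1969 and 1863 CPM in N2 and 3253 and 3999 in *csb-1*. Translocon, glycosyltransferase, signal peptidase and isomerase genes were all among the 30. The exceptions were *hsp-4*, *cnx-1* and *emc-5*. *hsp-4*, the second BiP chaperone and the classic reporter of the unfolded protein response, lay below, with 872 and 916 CPM in N2 and 657 and 234 in *csb-1*. *cnx-1*, calnexin, had 274 and 250 CPM in N2 and 479 and 193 in *csb-1*, on opposite sides, and *emc-5* had a *csb-1* library between the N2 values. No member was called by edgeR's quasi-likelihood test.

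The other genes named above N2 had mixed roles. *pgl-1*, a germ granule protein, had 10.1 and 10.8 CPM in N2 and 40.7 and 22.6 in *csb-1*. *gcy-21*, a receptor guanylyl cyclase, had 7.01 and 7.73 CPM in N2 and 15.8 and 21.0 in *csb-1*. *F52B5.7* had 5.68 and 7.20 CPM in N2 and 50.04 and 14.6 in *csb-1*, and ZC449.5 had 83.7 and 74.7 CPM in N2 and 190 and 164 in *csb-1*. All 12 genes named above N2 kept that side under all 4 scalings, and the *xpc-1* libraries of *lipl-2*, at 3.59 and 4.23 CPM, were the only pair among those 12 to lie below the N2 levels given here.

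**Figure D2:**
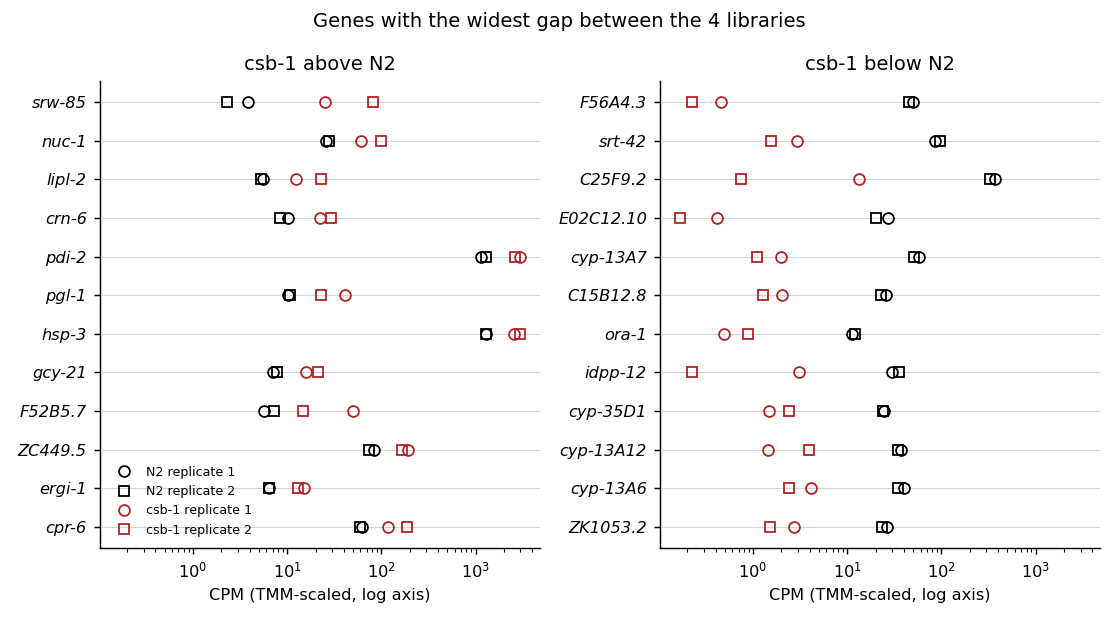
CPM on a log axis in each of the 4 libraries for the 12 genes with the widest gap above N2 and the 12 with the widest gap below, among genes with a mean of at least 10 CPM in the higher group. Black symbols are N2 and red symbols *csb-1*, circles replicate 1 and squares replicate 2, and in every row the red pair lies on one side of the black pair.

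Below N2 the gaps were wider. *F56A4.3*, on chromosome V, had 49.4 and 45.3 CPM in N2 and 0.455 and 0.222 CPM in *csb-1*, the latter from 22 and 8 counts. The log2 fold change was -7.11 (SE 0.61), the lowest p of the 4-library fit at 0.000354 before adjustment and 0.997 after it in edgeR's quasi-likelihood test. In the *xpc-1* libraries the gene was at 0.401 and 0.270 CPM, so that the N2 libraries alone held a substantial level. *srt-42*, a chemoreceptor gene of the serpentine class T, also on chromosome V, had 85.0 and 97.3 CPM in N2 and 2.92 and 1.55 in *csb-1*, whereas *xpc-1* had 88.4 and 98.6 CPM. The log2 fold change was -5.35 (SE 0.51). Both genes were near 0 in both *csb-1* libraries, and they differed in the *xpc-1* libraries.

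*C25F9.2*, the gene next to *srw-85* on chromosome V, had 366 and 328 CPM in N2 and 13.4 and 0.749 in *csb-1*, against 259 and 239 CPM in *xpc-1*. It spans 19421471 to 19426774 of chromosome V in WBcel235 on the plus strand, and *srw-85* spans 19429440 to 19431687 on the minus strand. The noncoding *linc-28*, next to *C25F9.2* on its other side, had 178 and 123 counts in N2 and 1 and 5 in *csb-1*. Further on, *C25F9.16* had 7.23 and 7.75 CPM in N2 and 1.47 and 1.55 in *csb-1*. *M04C3.1* had 75.0 and 68.4 CPM in N2 and 49.3 and 72.1 in *csb-1*. Adjacent genes of this stretch thus lay on different sides of N2, with *linc-28*, *C25F9.2*, *C25F9.11* and *C25F9.16* below and *srw-85* above. *E02C12.10*, also on chromosome V, had 27.2 and 20.2 CPM in N2 and 0.414 and 0.166 in *csb-1*. *E02C12.6*, close by but not adjacent, had 7.79 and 7.71 CPM in N2 and 0.248 and 0.776 in *csb-1*. Not all genes of this stretch lay below N2. *E02C12.8*, which lies between them, had 1.88 and 2.82 CPM in N2 and 0.621 and 2.0 in *csb-1*, replicate 2 falling between the N2 values. *E02C12.12*, beyond *E02C12.10*, had 0.485 and 0.365 CPM in N2 and 0.497 and 0.0832 in *csb-1*, on opposite sides.

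Cytochrome P450 genes were the family most often below N2 among the lists of enzymes. Of 74 tested members 42 (56.8%) lay below N2 in both *csb-1* libraries and 2 above, against 19.3% and 13.7% of all genes. A further 25 (33.8%) had the mutant libraries on opposite sides, against 49.9% of all genes. A gap of at least 2-fold below N2 was found for 18. The median log2 ratio was -1.31 in replicate 1 and -0.93 in replicate 2, and under the other scalings 40 to 47 lay below. The family took 0.138% and 0.124% of the counts in N2, 0.0611% and 0.0535% in *csb-1*, with *xpc-1* at 0.0991% and 0.0918%. The mutant replicates were alike in this total. No member was called by edgeR's quasi-likelihood test.

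The widest gap of the family belonged to *cyp-13A7*. It had 57.9 and 51.2 CPM in N2 and 1.99 and 1.11 in *csb-1*, a log2 fold change of -5.13 (SE 0.51). *cyp-13A6* had 39.9 and 34.6 CPM in N2 and 4.08 and 2.41 in *csb-1*, and *cyp-13A12*, on chromosome III, had 37.4 and 34.7 CPM in N2 and 1.45 and 3.97 in *csb-1*. The adjacent genes *cyp-13A4*, *cyp-13A5*, *cyp-13A6*, *cyp-13A7* and *cyp-13A8*, which lie between 9795848 and 9807532 of chromosome II, were all at least 2-fold below N2 in both libraries. These 5 genes formed 1 of 8 runs of at least 3 adjacent tested genes with such a gap. Related members can share reads, so the value of a single *cyp-13* gene is less certain than that of the run. The *cyp-13* list was drawn up after its values had been seen, and in it 10 of 13 members lay below N2, 0 above and 3 on opposite sides. The exceptions were *cyp-13A2* (9.65 and 9.37 CPM in N2, 1.78 and 18.7 in *csb-1*), *cyp-13A3* and *cyp-13B2* (3.54 and 3.94 CPM in N2, 9.04 and 0.277 in *csb-1*).

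Some members of the *cyp-35* family, known for its response to foreign compounds, and of the *cyp-33* family lay below N2 as well. *cyp-35D1* had 24.6 and 23.7 CPM in N2 and 1.47 and 2.41 in *csb-1*, and *cyp-35A4* had 23.0 and 21.3 CPM in N2 and 3.21 and 5.52 in *csb-1*. *cyp-33C5* had 20.6 and 20.7 CPM in N2 and 2.09 and 3.38 in *csb-1*. *cyp-35A4* lies in the longest of the 8 runs, 7 genes between 4025091 and 4043599 of chromosome V that end at *irg-2*, a gene named for its response to infection. Not all P450 genes, nor all members of these families, took that side. *cyp-35A2* had 40.8 and 36.7 CPM in N2 and 13.0 and 119 in *csb-1*. *cyp-33C9* had 11.6 and 11.1 CPM in N2 and 3.77 and 21.7 in *csb-1*. *cyp-42A1* had 35.8 and 35.7 CPM in N2 and 91.9 and 4.55 in *csb-1*, and *cyp-44A1* lay above in both, with 10.1 and 10.1 CPM in N2 and 17.7 and 14.5 in *csb-1*.

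Conjugating enzymes, which attach glutathione or glucose to foreign compounds, were also counted. Of 115 tested glutathione and glucuronosyl transferase genes, 48 (41.7%) lay below N2 in both *csb-1* libraries, against 19.3% of all genes, 4 lay above and 50 on opposite sides, and the median log2 ratio was -1.21 in replicate 1 and -0.04 in replicate 2. Some of the one-sided genes had close values in both mutant libraries and others did not. *gst-5* had 609 and 658 CPM in N2 and 151 and 158 in *csb-1*. *gst-39* had 102 and 110 CPM in N2 and 31.0 and 28.9 in *csb-1*, and *gst-4*, the common reporter of the oxidative stress response, had 85.6 and 73.6 CPM in N2 and 23.8 and 29.7 in *csb-1*. *gst-35*, also below in both, had 81.0 and 80.0 CPM in N2 and 35.9 and 4.21 in *csb-1*. *gst-27*, in contrast, had 52.0 and 56.8 CPM in N2 and 2.61 and 168 in *csb-1*, so its mutant libraries bracketed N2. Among the 44 gst genes tested, 26 lay below N2 in both libraries and 14 of those by at least 2-fold.

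The remaining genes named below N2 were *C15B12.8*, with 26.0 and 22.6 CPM in N2 and 2.03 and 1.28 in *csb-1*, and ZK1053.2, with 26.3 and 23.6 CPM in N2 and 2.71 and 1.53 in *csb-1*. *ora-1*, named for a related antigen of the parasite Onchocerca, had 11.1 and 12.1 CPM in N2 and 0.497 and 0.887 in *csb-1*. *idpp-12* had 29.7 and 35.3 CPM in N2 and 3.10 and 0.222 in *csb-1*, and *swt-6*, a sugar transporter of the SWEET family, had 32.8 and 33.0 CPM in N2 and 4.35 and 3.63 in *csb-1*. *swt-6* had one of the 5 lowest p-values, 0.00149 before adjustment and 0.997 after it in edgeR's quasi-likelihood test. A protein-coding gene on the other strand overlaps *swt-6*, with 210 and 97 counts in N2 and 64 and 25 in *csb-1*. All 12 genes with the widest gap below N2 kept that side under all 4 scalings, and DESeq2 called 11 of these 12.

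Of the 464 genes at least 2-fold below N2, 375 also had both *xpc-1* libraries below both N2 libraries, in the scaling of all 6 libraries, and 37 had them at least 2-fold below. In 432 of the 464 both *xpc-1* libraries lay above both *csb-1* libraries. The *xpc-1* values are set against the same N2 libraries, so these counts are no separate evidence on *csb-1*. The matching shares over all genes tested were not counted. Choosing genes that are high in N2 and low in *csb-1* by itself favours *xpc-1* values between them, so no shared effect is read from these counts. The 464 genes had a median of 12.8 CPM in N2, against 10.3 CPM for all genes tested. By chromosome, their share was 1.38% of tested genes on I, 2.87% on II, 1.80% on III, 2.11% on IV, 4.52% on V and 2.04% on X, and chromosome V held 178 of them.

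Genes of nucleotide excision repair were examined as the pathway of *csb-1*. Of the 20 tested, 11 (55.0%) lay above N2 in both *csb-1* libraries, against 13.7% of all genes, 1 below, which was *csb-1* itself, and 4 on opposite sides. The median log2 ratio was 0.33 in replicate 1 and 0.38 in replicate 2. None had a gap of at least 2-fold. The count depended on scaling, since with libraries scaled by their totals 3 of 20 lay above. In that scaling 794 of all 17730 genes tested lay above, in place of 2427. *xpc-1*, the damage sensor of global repair, had 42.1 and 38.7 CPM in N2 and 70.8 and 55.7 in *csb-1*, a log2 fold change of 0.65. *xpd-1*, a helicase of the TFIIH complex, had 28.3 and 26.1 CPM in N2 and 39.1 and 45.4 in *csb-1*. *csa-1*, the partner of CSB in transcription-coupled repair, had 5.22 and 5.33 CPM in N2 and 6.58 and 2.22 in *csb-1*. *xpa-1*, which checks the lesion, had 22.2 and 17.0 CPM in N2 and 22.8 and 18.1 in *csb-1*, with replicate 2 between the N2 values. No gene of the list was called by edgeR's quasi-likelihood test.

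DNA replication genes were counted in the same way. Of 30 tested, 16 (53.3%) lay above N2 in both *csb-1* libraries, against 13.7% of all genes, 0 below and 7 on opposite sides. With libraries scaled by their totals, however, 0 of 30 lay above in both, beside 794 of all 17730 genes tested. The median log2 ratio was 1.06 in replicate 1 and 0.08 in replicate 2. *rnr-2*, the small subunit of ribonucleotide reductase, had 129 and 121 CPM in N2 and 372 and 94.8 in *csb-1*. *mcm-7*, of the replicative helicase, had 103 and 123 CPM in N2 and 346 and 74.1 in *csb-1*. In both genes replicate 1 stood above N2 and replicate 2 below it. Of 22 tested checkpoint and apoptosis genes, 4 lay above N2 in both libraries and 11 on opposite sides, and *egl-1*, the activator of apoptosis that responds to DNA damage, had 2.87 and 2.60 CPM in N2 and 3.73 and 0.776 in *csb-1*.

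**Figure D3:**
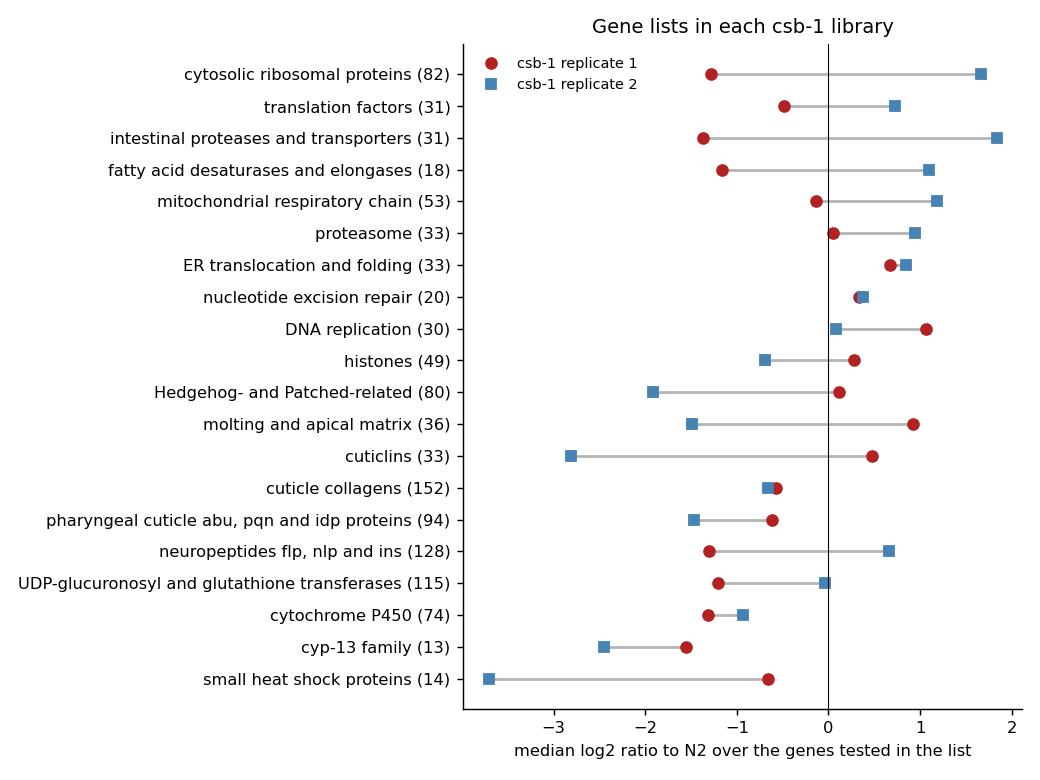
Median log2 ratio to N2 over the tested genes of each list (number tested in brackets), for *csb-1* replicate 1 (red circles) and *csb-1* replicate 2 (blue squares), both against the same N2 libraries. Endoplasmic reticulum, excision repair, P450 and cuticle collagen lists have both medians on the same side of 0, whereas the ribosomal protein medians are -1.28 and 1.67 and those of molting genes 0.92 and -1.49. The endoplasmic reticulum, *cyp-13* and pharyngeal cuticle lists were drawn up after values had been seen.

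Each *csb-1* library was then described alone. In replicate 1, 1959 genes (11.0%) were at least 2-fold above and 2936 (16.6%) at least 2-fold below the N2 mean, and in replicate 2 the numbers were 1996 (11.3%) and 3118 (17.6%). At the 4-fold limit replicate 1 had 207 genes (1.17%) above and 691 (3.9%) below, and replicate 2 had 457 (2.58%) above and 1440 (8.12%) below. The log2 ratios ranged from -6.61 to 3.04 in replicate 1 and from -9.91 to 6.64 in replicate 2. Replicate 2 was the library with more extreme values in both directions.

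Several genes of the larval cuticle and apical matrix were near 0 in replicate 2. *sqt-3*, a major collagen of the cuticle, had 1892 and 1799 CPM in N2, 4990 CPM in *csb-1* replicate 1 and 1.66 CPM in *csb-1* replicate 2. *col-165* had 812 and 786 CPM in N2 and 963 and 0.333 in *csb-1*, and *col-74* had 817 and 748 CPM in N2 and 1024 and 0.887 in *csb-1*. *mlt-11*, a protease inhibitor needed for molting, had 283 and 306 CPM in N2 and 1013 and 1.30 in *csb-1*, and *noah-2*, a zona pellucida protein of the apical matrix, had 297 and 331 CPM in N2 and 1077 and 5.60 in *csb-1*. These genes were highest in replicate 1 and lowest in replicate 2, with N2 between.

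Most of the molting list had this order. Of 36 tested genes, 24 (66.7%) lay above N2 in replicate 1 and below it in replicate 2, against 25.5% of all genes tested, 1 had the reverse split, 2 lay above in both and 6 below in both. They took 0.439% and 0.436% of counts in N2, 1.01% and 0.0896% in *csb-1*, with *xpc-1* at 0.653% and 0.656%. Cuticlins had 20 of 33 members with that split and median log2 ratios of 0.48 and -2.81. Hedgehog- and Patched-related genes, which serve cuticle secretion in the worm, had 38 of 80. Their example *wrt-2* had 74.5 and 81.0 CPM in N2 and 239 and 0.194 in *csb-1*. Regulators of the molting cycle showed the split in 9 of 16 genes, among them the period homologue *lin-42*, with 67.4 and 65.7 CPM in N2 and 215 and 8.82 in *csb-1*, and the epidermal factor *grh-1*, with 124 and 135 CPM in N2 and 177 and 19.8 in *csb-1*.

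Collagens of the col and related families were more mixed than the examples above. Of 152 tested cuticle collagen genes, 59 (38.8%) lay below N2 in both libraries, against 19.3% of all genes, and 3 above in both. A further 35 (23.0%) lay above in replicate 1 and below in replicate 2 and 38 (25.0%) the reverse, shares near the 25.5% and 24.5% of all genes. The list took 1.52% and 1.37% of counts in N2 and 1.61% and 0.891% in *csb-1*, with median log2 ratios of -0.57 and -0.66. Proteins of the pharyngeal cuticle (abu, pqn and idp genes, a list drawn up after its values had been seen) had 49 of 94 members below N2 in both libraries, 21 of them by at least 2-fold. *pqn-13* had 158 and 207 CPM in N2 and 223 and 0.277 in *csb-1*, one of those that did not take that side in both.

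Among heterochronic genes, which set the order of larval fates, *hbl-1* had 401 and 411 CPM in N2 and 1247 and 58.3 in *csb-1*, whereas *lin-41* had 169 and 161 CPM in N2 and 28.6 and 407 in *csb-1*. *lin-14*, whose protein is known to fall during the first larval stage of the wild type, had 309 and 290 CPM in N2 and 278 and 229 in *csb-1*, and *lin-28* had 161 and 110 CPM in N2 and 177 and 152 in *csb-1*. Of the 12 tested, 9 (75.0%) had mutant libraries on opposite sides, against 49.9% of all genes. Which stage within L1 each library represents was not tested.

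The epidermal markers include genes already described, among them *sqt-3*, *mlt-11* and *wrt-2*, so their split is no separate result. Of 13 tested hypodermis markers, 8 (61.5%) lay above N2 in replicate 1 and below it in replicate 2, against 25.5% of all genes. The list took 0.298% and 0.285% of counts in N2, 0.788% and 0.0168% in *csb-1*, with *xpc-1* at 0.477% and 0.470%. In *csb-1* replicate 1, *sqt-3* alone took 0.558% of the counts. *rol-6*, a collagen, had 3.32 and 2.03 CPM in N2 and 1.57 and 0 in *csb-1*, and *dpy-7*, another collagen, had 99.6 and 93.4 CPM in N2 and 306 and 0.0555 in *csb-1*. The epidermal transcription factors were present in every library. *elt-3* had 62.3 and 65.0 CPM in N2 and 58.1 and 43.3 in *csb-1*, *nhr-25* had 93.4 and 105 CPM in N2 and 103 and 59.2 in *csb-1*, and *lin-26* had 85.9 and 101 CPM in N2 and 157 and 64.3 in *csb-1*. The part of cell composition in these values was not tested.

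Replicate 2 held in turn high levels of ribosomal protein and gut genes. Of 82 tested cytosolic ribosomal protein genes, 77 lay below N2 in replicate 1 and above it in replicate 2, a split that 24.5% of all genes had, with medians of -1.28 and 1.67. They took 11.4% and 11.9% of the counts in N2, 4.91% in *csb-1* replicate 1, 25.0% in *csb-1* replicate 2, and 8.15% and 8.83% in *xpc-1*. *rla-1*, an acidic stalk protein, had 1170 and 1730 CPM in N2 and 421 and 4810 in *csb-1*. Translation factors had the same split in 24 of 31 genes and respiratory chain genes in 31 of 53, with *eef-1G* at 1205 and 1298 CPM in N2 and 629 and 3244 in *csb-1*. Proteasome genes leaned to one side, with 15 of 33 (45.5%) above N2 in both libraries, against 13.7% of all genes, and 12 split, and *rpn-9* had 58.9 and 63.4 CPM in N2 and 89.0 and 99.9 in *csb-1*.

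*cpr-5*, a cathepsin B-like protease of the gut, had the largest ratio of replicate 2, with 10.96 and 16.8 CPM in N2 and 1.99 and 1408 in *csb-1*. *cpr-1* had 15.1 and 20.04 CPM in N2 and 3.81 and 854 in *csb-1*, and *asp-1*, an aspartyl protease of the intestine, had 1917 and 2419 CPM in N2 and 349 and 9787 in *csb-1*. Of 31 tested genes of the list 21 (67.7%) took this split, against 24.5% of all genes. Together the list took 0.646% and 0.727% of counts in N2, 0.218% and 2.35% in *csb-1*, with *xpc-1* at 0.370% and 0.402%. *spp-17*, a saposin-like antimicrobial protein, had 12.2 and 12.7 CPM in N2 and 0.0828 and 515 in *csb-1*, and *ilys-5*, an invertebrate-type lysozyme, had 5.78 and 5.11 CPM in N2 and 0.662 and 209 in *csb-1*. Fatty acid desaturases and elongases were split in the same sense in 12 of 18, with *fat-2* at 174 and 185 CPM in N2 and 34.7 and 937 in *csb-1*. The intestinal transcription factor *elt-2* was near N2 in both mutant libraries, at 24.3 and 24.0 CPM in N2 and 27.7 and 27.7 in *csb-1*. Intestinal markers as a list took 0.362% and 0.419% of counts in N2 and 0.131% and 1.08% in *csb-1*. Of the 11, however, 4 lay above N2 in both libraries and 0 below, and the median log2 ratio was 0.06 in replicate 1 and 1.83 in replicate 2, so the total followed abundant members such as *asp-1*. Their part in these values was not tested.

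**Figure D4:**
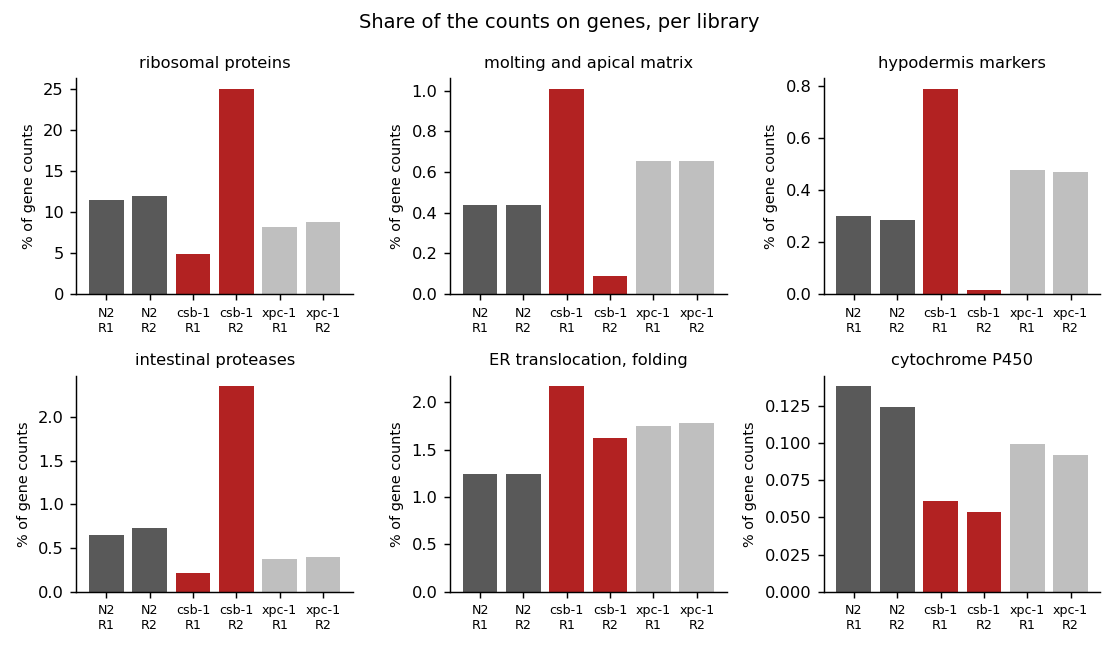
Percent of all counts on genes taken by 6 gene lists in each library of N2 (dark grey), *csb-1* (red) and *xpc-1* (light grey), 1 bar per library and every axis starting at 0. The *csb-1* replicates lie on opposite sides of N2 for ribosomal proteins (4.91% and 25.0%), molting genes, hypodermis markers and intestinal proteases, and on the same side for endoplasmic reticulum genes (2.17% and 1.62%) and P450 genes (0.0611% and 0.0535%). The endoplasmic reticulum list was drawn up after values had been seen.

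Replicate 1 had its own low and high ends. Its lowest ratios belonged to *pho-11*, a phosphatase gene with 239 and 249 CPM in N2 and 2.01 and 258 in *csb-1*, and to *F46F2.3*, with 448 and 419 CPM in N2 and 5.24 and 1255 in *csb-1*. *irg-4*, a gene named for its response to infection, had 124 and 122 CPM in N2 and 3.39 and 376 in *csb-1*, and *irg-3* had 152 and 188 CPM in N2 and 7.84 and 72.9 in *csb-1*. *pho-11* and *irg-4* were thus near 0 in replicate 1 and at or above N2 in replicate 2. *asp-14*, an aspartyl protease gene, had 287 and 312 CPM in N2 and 10.4 and 577 in *csb-1*. Neuropeptide genes were below N2 in replicate 1 and above in replicate 2 in 82 of 128 (64.1%, against 24.5% of all genes). Of these genes, *flp-14* had 29.3 and 35.4 CPM in N2 and 6.71 and 166 in *csb-1*.

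At the high end of replicate 1 stood genes of the germline and the early embryo. *gld-1*, a translational repressor of the germline, had 11.1 and 13.4 CPM in N2 and 82.7 and 9.93 in *csb-1*. *cpg-1*, a chondroitin proteoglycan of the eggshell, had 8.35 and 7.75 CPM in N2 and 67.7 and 3.38 in *csb-1*, and *cey-2*, a Y-box RNA-binding protein, had 10.3 and 12.2 CPM in N2 and 82.7 and 6.82 in *csb-1*. *sip-1*, a small heat shock protein of the embryo, had 20.4 and 24.2 CPM in N2 and 187 and 7.24 in *csb-1*, the highest ratio of that library. Of 14 tested embryo markers 11 (78.6%) lay above N2 in replicate 1 and below it in replicate 2, against 25.5% of all genes. Among them *pos-1* had 24.9 and 27.8 CPM in N2 and 169 and 1.94 in *csb-1*. Of 20 tested germline markers 7 (35.0%) lay above N2 in both libraries, against 13.7% of all genes. A further 9 (45.0%) lay above in replicate 1 and below in replicate 2, against 25.5%. Their median log2 ratios were 1.67 and -0.03. With libraries scaled by their totals 2 of 20 lay above in both, beside 794 of all 17730 genes tested. *prg-1*, the Piwi protein, was above in both, with 37.1 and 39.5 CPM in N2 and 79.7 and 65.7 in *csb-1*. *meg-1*, of the embryonic germ line, had 4.85 and 4.95 CPM in N2 and 33.8 and 0 in *csb-1*, and *nos-2* had 8.72 and 7.89 CPM in N2 and 33.6 and 0 in *csb-1*. Embryo markers took 0.0508% and 0.0515% of counts in N2 and 0.0963% and 0.0266% in *csb-1*. Whether embryos or germ cells were more frequent in replicate 1 was not tested. Adult gene products were scarce in all libraries, with vitellogenins at 0.000103% to 0.000896% and sperm genes at 0.000101% to 0.000356% of the counts.

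Of the 6 *hsp-16* genes tested, 5 lay below N2 in both libraries, and all 6 were lowest in replicate 2. *hsp-16.2* had 1365 and 1144 CPM in N2 and 692 and 12.7 in *csb-1*, and *hsp-16.41* had 1409 and 1181 CPM in N2 and 651 and 7.99 in *csb-1*. Of the 14 small heat shock genes tested, 7 lay below N2 in both libraries, 0 above and 5 on opposite sides. The shares of all genes tested were 19.3%, 13.7% and 49.9%. The 7 genes below include the 5 *hsp-16* genes. The median log2 ratios of the 14 were -0.66 in replicate 1 and -3.71 in replicate 2. The *hsp-16.1* and *hsp-16.48* loci exist as near-identical copies, so counts of a single copy are uncertain and the copies are not independent members. One *hsp-16.1* copy had 93.2 and 29.2 CPM in N2 and 39.4 and 0.444 in *csb-1*, with replicate 1 between the N2 values, and the other, at 56.8 and 26.7 CPM in N2 and 26.6 and 0.721 in *csb-1*, was below by almost nothing in replicate 1 and lost that side with libraries scaled by their totals. *hsp-17* had 43.7 and 38.3 CPM in N2 and 9.25 and 149 in *csb-1*, the reverse of the *hsp-16* genes in replicate 2.

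Neuronal and muscle markers had negative median ratios in replicate 1. Of 16 tested neuronal markers 8 lay below N2 in both libraries and 0 above, a count that was 13 with libraries scaled by their totals and 4 with RLE factors (median ratios to a mean library), with median log2 ratios of -0.80 and -0.03. *rab-3*, a synaptic vesicle GTPase, had 132 and 132 CPM in N2 and 70.8 and 107 in *csb-1*. Of 15 body wall muscle markers 5 (33.3%) lay below in both and 0 above, against 19.3% and 13.7% of all genes. With libraries scaled by their totals 10 lay below, again beside 4878 of all genes tested. *lev-11*, tropomyosin, had 1612 and 1667 CPM in N2 and 864 and 2774 in *csb-1*. Pharynx markers were split in 8 of 12 (66.7%, against 49.9% of all genes), with *myo-2*, the pharyngeal myosin, at 805 and 909 CPM in N2 and 292 and 2531 in *csb-1*. All of these tissue markers were detected in every library.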

How the data were processed

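RNA-seq of whole L1 larvae was analysed for 2 *csb-1(ok2335)* and 2 N2 libraries. The authors aligned poly(A), strand-specific libraries with STAR, kept properly paired reads of high mapping quality, removed mitochondrial reads and counted reads per gene with featureCounts 2.0.4. The deposited values are raw counts per gene, without normalization, beside each gene's summed exon length, on WBcel235. The headers name an Ensembl annotation, the methods WS295. No strand or fragment option was set, so both mates and either strand were counted, and counts are not independent molecules.

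Genes that reached 10 counts in 2 or more of the 4 libraries were tested with edgeR 4.0.16 (quasi-likelihood, TMM, Benjamini-Hochberg adjusted p under 0.05) in R 4.3.3, checked on simulated counts. The simulated replicates were far tighter than these data, whose fit had a biological coefficient of variation, the spread between replicates, of 0.726. The check therefore does not show what could be called at the *csb-1* spread. A gene absent in *csb-1* can pass this minimum through N2 alone. DESeq2 1.42.0, other scalings, count minimums, a replicate block, all 6 libraries and leaving out each library were alternatives. Replicates were not repeat deposits. Lists (30 of pathways and 10 of markers, with 4 more drawn up after values had been seen) and genes were chosen with earlier results of these data known, so no list was tested. Named were the 12 widest gaps each way, the 8 highest and lowest ratios of each *csb-1* library, the 5 lowest p-values, up to 4 members per list, and the neighbours of *csb-1*, of which the text gives examples; members of other rank were chosen after their values were seen. Symbols matched 44017 of 46904 identifiers. Python 3.11.15 was used. No sequence is printed.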

Additional observations from a re-analysis of the deposited data

How the results depend on the processing

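The count of genes called by edgeR was 0 under every scaling, count minimum, the fit of 6 libraries (1210 genes at an unadjusted p under 0.05), the halved counts and the replicate block (0 genes called, 214 at an unadjusted p under 0.05). It was 69 with DESeq2, and leaving out 1 library gave from 0, without either N2 replicate, to 9734. The replicate numbers share only a label, since the differences between replicates 1 and 2 in N2 and in *csb-1* had a correlation across genes of -0.00341, so the block removes nothing common to the pairs. Genes above N2 in both *csb-1* libraries were 794 with libraries scaled by totals, against 2427. With 1 library left out they ranged from 3108 to 7639 and genes below from 3719 to 8370. The 2-fold counts ranged from 26 to 1690 above and from 521 to 2796 below. With fewer libraries a gene lies on one side more easily, so these rises do not measure stability. Counts above were 5 with libraries scaled by totals and 3 with an offset of 2 CPM, chosen after seeing the data, which also gave 283 below. For *csb-1* itself the log2 fold change lay between -1.44 and -0.30 when 1 library was left out, the extremes being those without either mutant replicate, and was -0.87 with the replicate block.

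Among the neighbours of *csb-1* the direction reversed for *acox-1.6* (-0.033 with libraries scaled by totals, -0.48 to 0.53 with 1 library left out), *F59F4.3* (-0.085 scaled by totals, -0.080 to 0.32 with 1 library left out, the lower end without N2 replicate 1), *acl-1* (-0.86 to 1.32 with 1 left out), *F53H4.4* (0.027 with RLE factors, 0.028 with DESeq2, -0.47 to 0.31 with 1 left out), *gmeb-2* (-2.42 to 0.59) and *npr-33* (-0.13 with the replicate block, -2.04 to 1.64 with 1 left out). The cause was not tested. No fold change of the 24 one-sided genes named reversed. Each library held at least 43247541 counts, so depth limits mainly genes near the count minimum, and the fit of 4 libraries had 2 residual degrees of freedom.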

Other observations

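Over all genes tested, 49.9% had *csb-1* libraries on opposite sides of N2, and the gene lists not described so far are set beside that share. Of 330 tested F-box and MATH domain genes, families that expand rapidly in nematodes, 174 (52.7%) lay above N2 in replicate 1 and below it in replicate 2, against 25.5% of all genes, 55 below in both and 13 above in both. *fbxc-51* had 74.9 and 79.2 CPM in N2 and 279 and 0.998 in *csb-1*. The same split was found in 25 of 49 tested histone genes (51.0%), among them the linker histone *hil-7*, with 528 and 458 CPM in N2 and 940 and 12.5 in *csb-1*. C-type lectins had the opposite split in 60 of 137 genes (43.8%, against 24.5% of all genes), although *clec-266* had 286 and 325 CPM in N2 and 588 and 0.887 in *csb-1*. Lysozyme, saposin-like and antimicrobial genes lay below N2 in both libraries in 17 of 73 and were below in replicate 1 and above in replicate 2 in 32. Nuclear hormone receptors lay below in both in 62 of 238 (26.1%, against 19.3% of all genes), above in 15 and split in 120 (50.4%). With libraries scaled by totals 95 lay below. In that scaling 4878 of all 17730 genes tested lay below and 794 above. *nhr-2* had 15.0 and 15.4 CPM in N2 and 57.5 and 0.111 in *csb-1*. Ribosome biogenesis genes were split in 27 of 32 (84.4%), but with libraries scaled by totals 17 of 32 lay below in both in place of 2. Basement membrane genes were split in 9 of 18, *lam-3*, a laminin, having 210 and 172 CPM in N2 and 684 and 4.05 in *csb-1*. Genes of L1 arrest and fasting lay below in both in 10 of 39, above in 4 and split in 24, and genes of fat breakdown gave 10, 4 and 19 of 39. Collagen processing enzymes gave 4 below, 5 above and 9 split of 18, and HSP70, HSP90 and chaperonin genes, which include *hsp-3*, *hsp-4* and *enpl-1* of the endoplasmic reticulum, 4, 4 and 13 of 22, with 10 below and 2 above when libraries were scaled by totals. Of 6 dauer and adult collagens 1 passed the count minimum.

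Counts around *F56A4.3* on chromosome V (2453414 to 2456147, plus strand, WBcel235) were near 0 in both mutant strains for several adjacent genes. *irld-35*, which is annotated at 2 places, had 153 and 183 counts in N2, 1 and 3 in *csb-1*, with *xpc-1* at 0 and 0 at the copy beside *F56A4.3*. *clec-209* had 231 and 260 counts in N2, 0 and 98 in *csb-1*, with *xpc-1* at 3 and 1, so *csb-1* replicate 2 stood apart. *F56A4.5*, also annotated at 2 places, had 81 and 70 counts in N2, 0 and 0 in *csb-1*, with *xpc-1* at 7 and 3 at one copy, and 81 and 69 in N2 at the other. The copies share a symbol and nearly equal counts, so their values are not independent. *str-267*, which lies between them, had 11 and 12 counts in N2, 2 and 0 in *csb-1*, with *xpc-1* at 0 and 0. Farther out, *Y19D10A.4* had 196 and 154 counts in N2, 19 and 12 in *csb-1*, with *xpc-1* at 24 and 12. The state of the DNA at this locus was not tested.

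By gene type, protein-coding genes made up 426 of the 464 genes at least 2-fold below N2 and all 13 of those above, against 16302 of the 17730 tested. Pseudogenes made up 22 of the 464, against 825 of those tested. Of 304 tested ncRNA genes 104 lay below N2 in both libraries and 16 above, beside 19.3% and 13.7% of all genes. Reads of either strand were counted, so an ncRNA gene can hold reads of a gene that overlaps it. On chromosome II (2580901 to 2598903) a run of 5 adjacent genes at least 2-fold below N2 held 3 sri chemoreceptor genes, and the *idpp-12* cluster of chromosome IV (3302358 to 3306541) a run of 3.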
